A study of Mus musculus with 6 samples.

Results

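Integrins, syndecans, glypicans and discoidin receptors are the main classes of cell surface receptor for the extracellular matrix, and their messenger RNA was compared between osteoblasts and chondrocytes of newborn mice. Members were taken by name only: every gene symbol of the deposited table that starts with Itga, that is Itgb followed by a number, or that is Sdc1 to Sdc4, Gpc1 to Gpc6, Ddr1 or Ddr2. This gave 38 of the 23364 gene symbols, with 51 of the 31055 RefSeq transcripts. The study measured total RNA by RNA-seq in 6 libraries, all from C57BL/6 mice at postnatal day 1. The 3 osteoblast libraries came from cells of the calvaria, the skull roof, which were released with Liberase TM, sorted for green fluorescent protein (GFP) and labelled Sp7 positive. Sp7, also called Osterix, is a transcription factor needed to form osteoblasts, and the labels do not name the allele or promoter that drives the GFP. The 3 chondrocyte libraries came from rib cartilage of wild-type mice, were released with Pronase and Collagenase D, and carry no label of a sort. Cell type, skeletal site, sorting, genotype and enzyme therefore differ together and cannot be told apart. No label says whether a library came from 1 animal or from pooled animals, so p-values measure the spread between these libraries, which may be technical.

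Integrins are pairs of an alpha and a beta subunit, and the pair sets which matrix protein is bound: collagen, laminin, or proteins that carry the short Arg-Gly-Asp (RGD) motif, such as fibronectin, osteopontin and bone sialoprotein. Inside the cell, integrins are tied to actin through linker proteins such as talin, kindlin and vinculin. Syndecans are transmembrane proteins and glypicans are lipid-anchored proteins, and both carry heparan sulfate chains that bind matrix proteins and growth factors. Discoidin receptors are tyrosine kinases that are switched on by collagen. Osteoblasts build a matrix of type I collagen, and cartilage is built of type II collagen and aggrecan.

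The libraries matched their labels by the markers of each cell type. All 10 osteoblast markers tested were higher in osteoblasts, with a summed level of 22124 to 23680 RPKM (a read count divided by transcript length and library depth) against 2320 to 7816 RPKM in chondrocytes. All 10 chondrocyte markers were higher in chondrocytes, at a summed 33583 to 58293 RPKM against 255 to 295 RPKM. Chondrocyte library 3 stood apart from the other 2 in Col1a1 and some tendon genes. It held 7765 RPKM of the bone and tendon collagen Col1a1, against 2270 and 2259 RPKM, and 341 RPKM of the tendon gene Tnmd, against 106 and 52.3 RPKM. Most other osteoblast markers did not follow Col1a1, which made up nearly all of the highest marker sum in chondrocytes. Bglap, Bglap2, Dmp1 and Spp1 were lowest in library 3, with Spp1 at 36.1 RPKM against 41.2 and 42.5 RPKM. Ibsp, Alpl and Sp7 were highest in library 2, and Phex, under 1 RPKM, was highest in library 3. Library 3 also had the lowest Col2a1, at 26727 RPKM against 37318 and 48028 RPKM. Of the 23 receptor genes tested, 15 had the chondrocyte value nearest to the osteoblast mean in this library. The share over all tested genes was not counted. By the correlation of log2 values, chondrocyte library 3 was also nearer to the osteoblast libraries, at 0.817 to 0.820, against 0.777 to 0.780 for the other 2. Among the chondrocyte libraries, however, libraries 1 and 3 were the most alike, at 0.9857. Library 2 was the least like the others, at 0.9705 with library 1 and 0.9612 with library 3. It held the most of the chondrocyte markers Matn1, at 46.6 RPKM against 3.12 and 3.10 RPKM, and Acan, at 996 RPKM against 504 and 464 RPKM. The part of the third library in the results below was not tested, beyond the values given without it.

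Of the 38 receptor genes, 23 had at least 1 RPKM in at least 3 libraries and were tested. The test was limma on log2(RPKM + 1), two-sided, with Benjamini-Hochberg adjustment over 11218 genes and a call at an adjusted p under 0.05. Fold values are ratios of mean RPKM. Of the 23, osteoblasts had more of 15, chondrocytes had more of 6, and Itga9 and Sdc1 were not called. Among all genes tested, 69.0% were called, 55.5% as higher in osteoblasts and 13.5% as higher in chondrocytes, so the shares of the receptors, 65.2% and 26.1%, stand beside a high background. The 6 genes Itga1, Itga2, Itga6, Itga8, Itgb3 and Gpc2 passed the filter through the libraries of 1 cell type, and for those a difference in that direction was built in. The same holds for tested genes of the marker and partner lists that were under 1 RPKM in every library of 1 cell type. Without the filter, 19 of 38 were called with more in osteoblasts and 5 with more in chondrocytes, where 21.7% and 4.93% of all 23364 genes were. By ranges alone, all osteoblast libraries lay above all chondrocyte libraries for 26 of the 38, the reverse held for 6, and 6 overlapped, against 36.9% and 10.7% of all genes. Among tested genes the shares without overlap were 60.4% and 15.3%. The median log2 difference was 0.92 over the tested receptors and 0.43 over all tested genes.

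Most genes stood higher in osteoblasts on the deposited scale, and part of that depends on how libraries are scaled. With libraries scaled by the median of gene ratios, the median over all tested genes became 0.06, and osteoblast-higher genes made up 54.2% of all calls in place of 80.5%. The receptor calls became 13 higher in osteoblasts and 6 higher in chondrocytes, with Gpc3 and Ddr1 no longer called. Over all 11218 genes tested the calls became 3765 and 3178, from 6224 and 1512 on the deposited scale. The 6 receptors higher in chondrocytes then stand beside a much larger background in that direction. Differences under about 0.43 on the log2 scale are therefore small against the shift of all genes. Ratios between receptors within 1 library do not depend on the scaling, and they are given for each class.

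**Figure D1:**
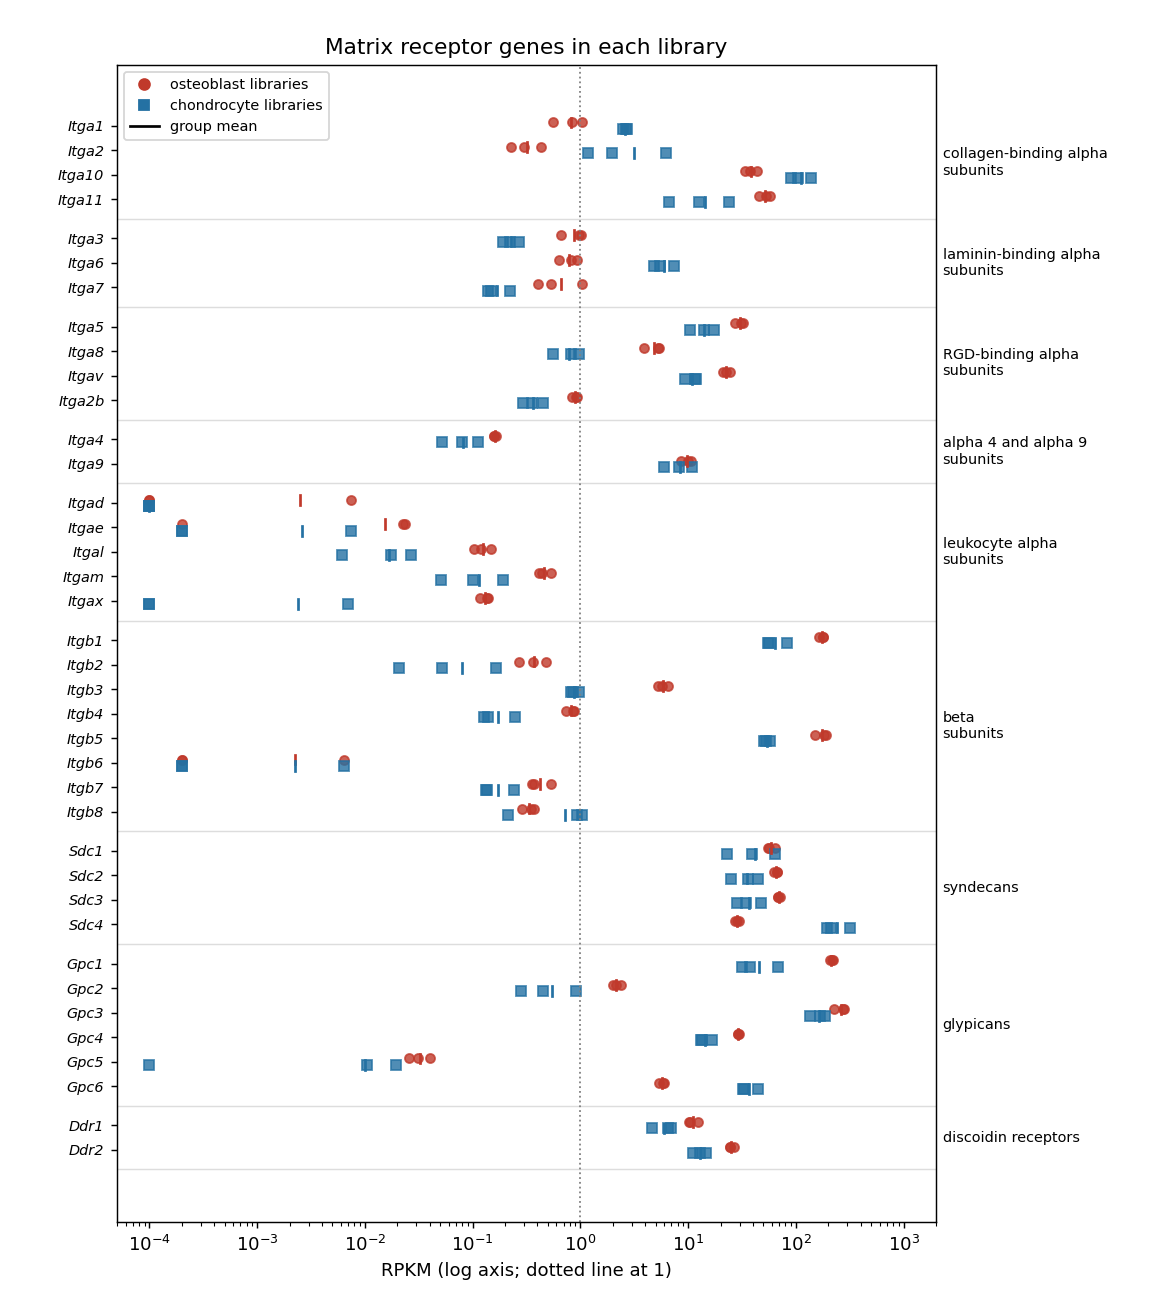
RPKM of each of the 38 receptor genes (log axis) in the 3 osteoblast libraries (red circles) and the 3 chondrocyte libraries (blue squares), grouped by class, with a vertical bar at each group mean and a dotted line at 1 RPKM. Sdc4, Gpc6, Itga10 and Itga6 lie to the right in chondrocytes, Gpc1, Itgb1, Itgb5, Itga11 and Itgb3 lie to the right in osteoblasts, and the leukocyte alpha subunits all lie under 1 RPKM.

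Of the 4 alpha subunits that bind collagen, Itga10, Itga1 and Itga2 were higher in chondrocytes (75.0%, against 13.5% of all genes). Itga11 was higher in osteoblasts (25.0%, against 55.5%). Itga1 and Itga2 passed the filter through the chondrocyte libraries, so their direction was largely built in. Itga10, the collagen-binding subunit known from cartilage, measured 37.2, 33.9 and 43.3 RPKM in the osteoblast libraries and 139, 105 and 90.7 RPKM in the chondrocyte libraries. Every chondrocyte library lay above every osteoblast library. The mean was 112 ± 25.0 RPKM (SD, n = 3) in chondrocytes and 38.2 ± 4.77 RPKM (SD, n = 3) in osteoblasts, a 2.92-fold ratio and a log2 difference of -1.51 ± 0.18 (SE, osteoblast minus chondrocyte, limma adjusted p = 0.000245). Itga11, which binds fibrillar collagen in mesenchymal cells, measured 57.7, 53.1 and 45.8 RPKM in osteoblasts and 12.6, 6.65 and 23.8 RPKM in chondrocytes. The groups did not overlap, and the third chondrocyte library was the highest of its group. Itga11 was 3.63-fold higher in osteoblasts, with a log2 difference of 1.95 ± 0.38 (SE, limma adjusted p = 0.00295). In a bulk library, fewer cells of a type and less RNA per cell cannot be told apart, and this holds for every level given here.

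The make-up of the collagen-binding subunits turned over between the cell types. Itga10 made up 38.8%, 38.4% and 48.1% of their summed RPKM in the osteoblast libraries and 89.0%, 90.9% and 73.6% in the chondrocyte libraries. Itga11 made up 60.1%, 60.1% and 50.8% in osteoblasts and 8.05%, 5.76% and 19.3% in chondrocytes. Neither share overlapped between the groups. Osteoblasts thus held both at similar levels, with 0.744 ± 0.176 times as much Itga10 as Itga11 (SD, n = 3), while chondrocytes held 11.1, 15.8 and 3.804 times as much Itga10. The summed RPKM of the 4 subunits was 88.3 to 96.0 in osteoblasts and 115 to 157 in chondrocytes.

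Itga1 and Itga2 were minor members of the group in both cell types. Itga1, a receptor for basement membrane and fibrillar collagens, measured 0.833, 1.04 and 0.563 RPKM in osteoblasts and 2.69, 2.66 and 2.48 RPKM in chondrocytes, with a log2 difference of -1.003 ± 0.12 (SE, limma adjusted p = 0.000285). Itga2, best known as a platelet collagen receptor, measured 0.226, 0.302 and 0.430 RPKM in osteoblasts and 1.97, 1.17 and 6.19 RPKM in chondrocytes, with a log2 difference of -1.45 ± 0.40 (SE, limma adjusted p = 0.0133). The third chondrocyte library alone set most of the Itga2 mean there. Itga1 and Itga2 lie next to each other in the genome, with 0 protein-coding genes between them.

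The starts of Itga10, Itga11 and Sdc4 are shown because these 3 genes carry large shifts in make-up and have an entry in the promoter table used. Each is the 250 bases before the RefSeq start site on build GRCm38.p6, 5′ to 3′ on the gene's strand, with every CG pair in capitals. Itga10 lies at chr3:96645334-96645583 on the plus strand, Itga11 at chr9:62677605-62677854 on the plus strand and Sdc4 at chr2:164443189-164443438 on the minus strand.
Itga10: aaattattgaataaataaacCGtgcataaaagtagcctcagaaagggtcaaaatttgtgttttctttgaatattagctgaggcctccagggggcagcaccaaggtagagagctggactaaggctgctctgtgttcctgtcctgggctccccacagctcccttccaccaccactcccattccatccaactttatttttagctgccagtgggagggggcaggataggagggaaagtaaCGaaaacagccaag
Itga11: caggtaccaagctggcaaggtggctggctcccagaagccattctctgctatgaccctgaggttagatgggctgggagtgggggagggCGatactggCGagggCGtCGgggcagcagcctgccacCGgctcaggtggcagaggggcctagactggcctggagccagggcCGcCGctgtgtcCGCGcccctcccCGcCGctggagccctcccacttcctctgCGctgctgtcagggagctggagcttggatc
Sdc4: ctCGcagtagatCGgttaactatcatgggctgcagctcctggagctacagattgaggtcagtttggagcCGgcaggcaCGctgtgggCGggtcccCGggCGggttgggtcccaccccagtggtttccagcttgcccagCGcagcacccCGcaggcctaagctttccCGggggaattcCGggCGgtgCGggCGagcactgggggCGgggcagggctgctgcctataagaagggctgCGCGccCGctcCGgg
The Itga10 stretch held 2 CG pairs and 48.0% G or C, the Itga11 stretch 12 pairs and 68.4%, and the Sdc4 stretch 19 pairs and 68.0%. The median was 12 pairs over the 27 receptor genes with an entry, by the first promoter listed, and 6 pairs over the 32851 promoters of the table. The Sdc4 stretch held 4 matches, on either strand, of the GC box GGGCGG. This was found in 14 of the 27 receptor genes and in 32.7% of all promoters. A receptor gene was counted if any promoter listed for it matched, while shares of all promoters count each promoter singly, so the 2 are not strictly alike. The letters AACAAT and ACAAAG of SOX factors, TGTGGT of RUNX factors and the homeodomain core TAATTA were not in these 3 windows on either strand. Over the 27 receptor genes they were found in 3, 3, 3 and 0, against 9.4%, 16.5%, 14.0% and 4.8% of all promoters. These matches are letters in a window and do not show binding.

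**Figure D2:**
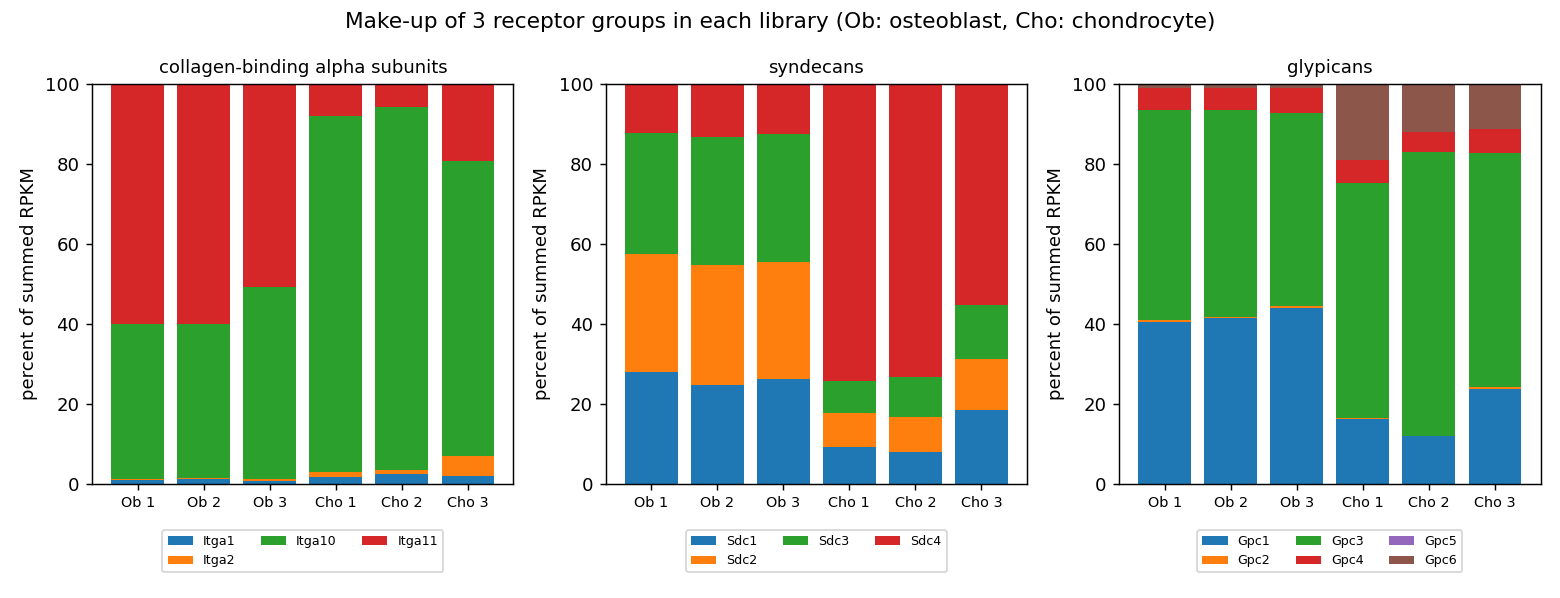
Share of each gene in the summed RPKM (percent, y axis) of the collagen-binding alpha subunits, the syndecans and the glypicans, with 1 stacked bar for each of the 3 osteoblast (Ob) and 3 chondrocyte (Cho) libraries. Itga11 takes 50.8% to 60.1% in osteoblasts and 5.76% to 19.3% in chondrocytes, Sdc4 takes 12.4% to 13.3% and 55.2% to 74.2%, and Gpc6 takes 1.11% to 1.13% and 11.5% to 19.1%.

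Among the alpha subunits that bind laminin, Itga6 was the only 1 of 3 to reach the level for testing, and it was higher in chondrocytes. It passed the filter only through the chondrocyte libraries, so that direction was built in. Itga6 measured 0.932, 0.810 and 0.633 RPKM in osteoblasts and 5.51, 7.37 and 4.86 RPKM in chondrocytes, with no overlap. The chondrocyte mean was 7.47-fold higher, with a log2 difference of -1.93 ± 0.15 (SE, limma adjusted p = 4.11e-05). Itga3 and Itga7 were under the filter in both cell types, with means of 0.878 and 0.658 RPKM in osteoblasts and 0.227 and 0.170 RPKM in chondrocytes. Itga6 made up 93.4% ± 2.46 (SD, n = 3) of the laminin-binding sum in chondrocytes and 33.9% ± 3.94 (SD, n = 3) in osteoblasts. Itga6 is also an endothelial and epithelial gene. The endothelial markers were all under the filter, with a summed 1.52 to 4.47 RPKM in osteoblasts and 3.85 to 7.92 RPKM in chondrocytes, and their part in Itga6 was not tested.

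Of the alpha subunits that bind RGD proteins, all 3 that were tested were higher in osteoblasts, against 55.5% of all genes. Of these, Itga8 passed the filter only through the osteoblast libraries, so its direction was built in. Itga5, the fibronectin receptor subunit, measured 32.2, 30.7 and 27.1 RPKM in osteoblasts and 10.4, 17.5 and 13.9 RPKM in chondrocytes, with a log2 difference of 1.08 ± 0.18 (SE, limma adjusted p = 0.00118). Itgav, which joins several beta subunits to bind osteopontin, vitronectin and latent TGF-beta, measured 24.6, 22.2 and 21.3 RPKM in osteoblasts and 9.46, 11.6 and 11.9 RPKM in chondrocytes, with a log2 difference of 0.99 ± 0.11 (SE, limma adjusted p = 0.000236). Neither gene overlapped between the groups. Itga8, whose known ligand is nephronectin, measured 5.32, 5.30 and 3.92 RPKM in osteoblasts and 0.555, 0.826 and 0.967 RPKM in chondrocytes, a 6.19-fold ratio and a log2 difference of 1.71 ± 0.15 (SE, limma adjusted p = 5.77e-05). Itga8 is also known from smooth muscle and pericytes. Of the 5 markers of those cells that were tested, 4 were higher in osteoblasts (80.0%, against 55.5% of all genes). Of these, Notch3, Cnn1 and Kcnj8 passed the filter through the osteoblast libraries. Rgs5 overlapped between the groups and was not called (limma adjusted p = 0.153). Myh11 was under the filter and overlapped, at means of 0.101 RPKM in osteoblasts and 0.0831 RPKM in chondrocytes. The summed level of the list was 131 to 182 RPKM against 3.61 to 8.05 RPKM. Acta2 made up most of it, at a mean of 129 RPKM in osteoblasts and 3.09 RPKM in chondrocytes, and the part of such cells in Itga8 was not tested.

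Within the RGD group, Itga5 and Itgav held most of the RNA in both cell types. Itga5 made up 51.3% ± 0.519 (SD, n = 3) of its RPKM in osteoblasts and 53.1% ± 4.24 (SD, n = 3) in chondrocytes, and the ranges overlapped. Itga8 made up 7.35% to 8.96% in osteoblasts and 2.65% to 3.57% in chondrocytes, with no overlap. Itga2b, the platelet subunit, was under the filter, at 0.838 to 0.926 RPKM in osteoblasts and 0.294 to 0.450 RPKM in chondrocytes. Of the platelet markers, Pf4 measured 5.14 to 9.56 RPKM in osteoblasts and 0.151 to 3.03 RPKM in chondrocytes, while Gp9 was listed at the table's floor of 0.0001 in every osteoblast library. The summed level of the 8 platelet markers was 8.71 to 13.2 RPKM in osteoblasts and 3.74 to 5.55 RPKM in chondrocytes, and their part in Itga2b was not tested.

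Itga9 and Itga4 form a class of their own among alpha subunits. Itga9, which binds tenascin and other matrix proteins, measured 10.7, 10.1 and 8.62 RPKM in osteoblasts and 8.30, 5.99 and 10.9 RPKM in chondrocytes. The groups overlapped, and the log2 difference was 0.23 ± 0.19 (SE, limma adjusted p = 0.317). It turned to -0.17 under median-of-ratios scaling, and without the third chondrocyte library it was 0.42 with a limma adjusted p of 0.0488. Itga4 stayed under the filter, at means of 0.160 RPKM in osteoblasts and 0.0809 RPKM in chondrocytes.

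The 5 leukocyte alpha subunits, Itgad, Itgae, Itgal, Itgam and Itgax, were all under the filter, and their summed RPKM was 0.656 to 0.797 in osteoblasts and 0.0688 to 0.232 in chondrocytes. Itgam, of macrophages and granulocytes, was the highest, at 0.443, 0.412 and 0.538 RPKM against 0.102, 0.0509 and 0.190 RPKM. At the depth estimated from the steps of the table, Itgam rested on 64.3 to 71.3 reads in an osteoblast library and 7.9 to 31.6 reads in a chondrocyte library. Itgax measured 0.136, 0.118 and 0.138 RPKM in osteoblasts, some 19.0 reads or fewer, and was listed at 0.0001 RPKM in 2 of the 3 chondrocyte libraries. Itgad was listed at 0.0001 RPKM in 5 of 6 libraries. Itgam, Itgax and Itgad are neighbours of related sequence, and the way reads were divided between them was not stated.

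Markers of blood-derived cells were set beside these subunits, and the lists were not alike. Of the 8 myeloid markers tested, 7 were higher in osteoblasts (87.5%, against 55.5% of all genes). The other 1, Cd14, was higher in chondrocytes (12.5%, against 13.5%). The 7 were under 1 RPKM in the first and second chondrocyte libraries. They passed the filter through the osteoblast libraries, so that direction was largely built in. The summed level of the list was 24.7 to 28.4 RPKM against 5.38 to 16.3 RPKM. The pan-leukocyte gene Ptprc averaged 0.304 RPKM in osteoblasts and 0.0814 RPKM in chondrocytes. Of the osteoclast markers, 3 of 3 tested were higher in osteoblasts, against 55.5% of all genes. Among them, Mmp9 passed the filter only through the osteoblast libraries, so its direction was built in. The summed level of the osteoclast list was 203 to 217 RPKM against 47.0 to 165 RPKM. Nearly all of that sum was the protease gene Ctsk, at 196 to 205 RPKM against 45.0 to 162 RPKM, and the osteoclast genes Calcr, Dcstamp, Ocstamp, Oscar and Atp6v0d2 did not exceed 0.227 RPKM in any library. Lymphoid markers were all under the filter, at summed levels of 0.248 to 0.422 RPKM against 0.0679 to 0.133 RPKM. Neutrophil markers were under it too, at 0.233 to 1.74 RPKM against 0.0007 to 0.448 RPKM. The groups overlapped for 7 of the 8 lymphoid and 6 of the 7 neutrophil markers, and for 12247 of all 23364 genes. The part of such cells in the levels of Itgam, Itgax, Itgal, Itgb2 and Itgb3 was not tested.

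The beta subunits were led by Itgb1 and Itgb5 in both cell types. Osteoblasts had more of all 3 that passed the filter, against 55.5% of all genes. Of these, Itgb3 passed the filter only through the osteoblast libraries, so its direction was built in. Itgb1, the partner of most alpha subunits, measured 178, 178 and 165 RPKM in osteoblasts and 56.9, 54.8 and 82.4 RPKM in chondrocytes, with a log2 difference of 1.44 ± 0.17 (SE, limma adjusted p = 0.000241). Itgb5, which pairs with Itgav in a vitronectin receptor, measured 192, 184 and 150.4 RPKM in osteoblasts and 57.9, 50.5 and 52.4 RPKM in chondrocytes, a 3.27-fold ratio and a log2 difference of 1.69 ± 0.13 (SE, limma adjusted p = 3.61e-05). Both genes lay above every chondrocyte library in every osteoblast library. Itgb3, which pairs with Itgav in osteoblasts and osteoclasts and with Itga2b in platelets, measured 6.45, 5.73 and 5.27 RPKM in osteoblasts and 0.854, 0.976 and 0.814 RPKM in chondrocytes. It was 6.60-fold higher in osteoblasts, with a log2 difference of 1.85 ± 0.11 (SE, limma adjusted p = 1.11e-05).

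Itgb1 was set against the RNA of its alpha partners within each library. The alpha subunits that can pair with Itgb1, taken as Itga1 to Itga11 and Itgav, which also pairs with other beta subunits, summed to 161 ± 9.23 RPKM (SD, n = 3) in osteoblasts and 172 ± 17.0 RPKM (SD, n = 3) in chondrocytes, and the ranges overlapped. Itgb1 per RPKM of those partners was 1.04, 1.12 and 1.08 in osteoblasts and 0.298, 0.345 and 0.496 in chondrocytes, with no overlap. The ratio of Itgb5 to Itgb3 was 30.1 ± 1.84 (SD, n = 3) in osteoblasts and 61.3 ± 8.46 (SD, n = 3) in chondrocytes. These are ratios of RNA, and no protein or assembled receptor was measured.

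The other 5 beta subunits were under the filter. Itgb2, the leukocyte beta subunit, averaged 0.370 RPKM in osteoblasts and 0.0794 RPKM in chondrocytes. Itgb4, of epithelial hemidesmosomes, averaged 0.820 and 0.171 RPKM, and the summed epithelial markers were at 0.649 to 0.934 RPKM and 0.160 to 0.276 RPKM. Itgb7 averaged 0.422 and 0.171 RPKM. Itgb8, which activates latent TGF-beta, measured 0.372, 0.287 and 0.347 RPKM in osteoblasts and 1.04, 0.211 and 0.926 RPKM in chondrocytes, so the groups overlapped. Itgb6 did not exceed 0.00637 RPKM in any library.

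Sdc4 was higher in chondrocytes and had the largest difference of the 23 tested receptors on the log2(RPKM + 1) scale. By the ratio of means Itga2, a gene of low level, stood above it, at 9.75-fold. It measured 28.2, 29.5 and 27.2 RPKM in osteoblasts and 315, 210.2 and 193 RPKM in chondrocytes. The groups lay far apart, with an 8.46-fold ratio and a log2 difference of -3.003 ± 0.19 (SE, limma adjusted p = 1.42e-05). Sdc2 and Sdc3 went the other way. Sdc2 measured 66.9, 66.8 and 63.0 RPKM in osteoblasts and 36.3, 25.0 and 44.2 RPKM in chondrocytes, with a log2 difference of 0.92 ± 0.19 (SE, limma adjusted p = 0.00413). Sdc3 measured 68.8, 71.2 and 68.2 RPKM in osteoblasts and 34.2, 28.6 and 47.7 RPKM in chondrocytes, with a log2 difference of 0.93 ± 0.18 (SE, limma adjusted p = 0.00257). Neither overlapped between the groups.

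Sdc1, the syndecan best known from epithelia and plasma cells, was not called. It measured 63.8, 55.0 and 56.0 RPKM in osteoblasts and 38.9, 22.8 and 64.6 RPKM in chondrocytes, with a log2 difference of 0.58 ± 0.33 (SE, limma adjusted p = 0.153). The third chondrocyte library was the highest of all 6. Without it the log2 difference was 0.94 with a limma adjusted p of 0.00584.

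In osteoblasts the syndecans Sdc1, Sdc2 and Sdc3 were near equal, while Sdc4 led in chondrocytes. Sdc4 made up 12.4%, 13.3% and 12.7% of the summed syndecan RPKM in osteoblasts and 74.2%, 73.3% and 55.2% in chondrocytes. Sdc3 made up 31.3% ± 0.988 (SD, n = 3) in osteoblasts and 10.6% ± 2.83 (SD, n = 3) in chondrocytes. The summed level was 214 to 228 RPKM in osteoblasts and 287 to 424 RPKM in chondrocytes.

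Of the 5 glypicans tested, 4 were higher in osteoblasts (80.0%, against 55.5% of all genes), and Gpc6 was higher in chondrocytes. Of the 4, Gpc2 passed the filter only through the osteoblast libraries, so its direction was built in. Gpc1 measured 217, 219.7 and 206 RPKM in osteoblasts and 37.4, 31.5 and 68.4 RPKM in chondrocytes. The groups did not overlap, the ratio was 4.68-fold, and the log2 difference was 2.28 ± 0.26 (SE, limma adjusted p = 0.00024). Gpc6 measured 5.99, 5.89 and 5.33 RPKM in osteoblasts and 44.1, 32.2 and 32.97 RPKM in chondrocytes, a 6.35-fold ratio and a log2 difference of -2.46 ± 0.14 (SE, limma adjusted p = 8.94e-06). There was 37.4 ± 1.27 times as much Gpc1 as Gpc6 in osteoblasts (SD, n = 3) and 1.30 ± 0.673 times as much in chondrocytes (SD, n = 3).

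Gpc3, the glypican mutated in an overgrowth syndrome, was the most abundant glypican in both cell types. It measured 281, 275 and 227 RPKM in osteoblasts and 135, 188 and 169 RPKM in chondrocytes, with a log2 difference of 0.67 ± 0.16 (SE, limma adjusted p = 0.00662). Under median-of-ratios scaling this became 0.23 with a limma adjusted p of 0.309. As a share of glypican RPKM, Gpc3 made up 50.8% ± 2.30 (SD, n = 3) in osteoblasts and 62.8% ± 7.08 (SD, n = 3) in chondrocytes, with no overlap. Gpc4, the neighbour of Gpc3 with 0 protein-coding genes between them, measured 28.9, 29.3 and 29.8 RPKM in osteoblasts and 13.3, 13.2 and 16.6 RPKM in chondrocytes, with a log2 difference of 0.99 ± 0.11 (SE, limma adjusted p = 0.000202). Its share of the glypicans overlapped between the groups, at 5.41% to 6.32% and 4.96% to 5.79%.

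Gpc2, known from the developing nervous system, measured 2.00, 2.12 and 2.37 RPKM in osteoblasts and 0.449, 0.283 and 0.908 RPKM in chondrocytes, with a log2 difference of 1.05 ± 0.15 (SE, limma adjusted p = 0.000724). Gpc5 was near the floor, at means of 0.0322 and 0.00996 RPKM, which stand for at most 2.4 estimated reads in a library. Gpc5 and Gpc6 are neighbours, with 0 protein-coding genes between them, and only Gpc6 reached the level for testing. The summed glypican level was 471 to 535 RPKM in osteoblasts and 230.3 to 288 RPKM in chondrocytes.

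**Figure D3:**
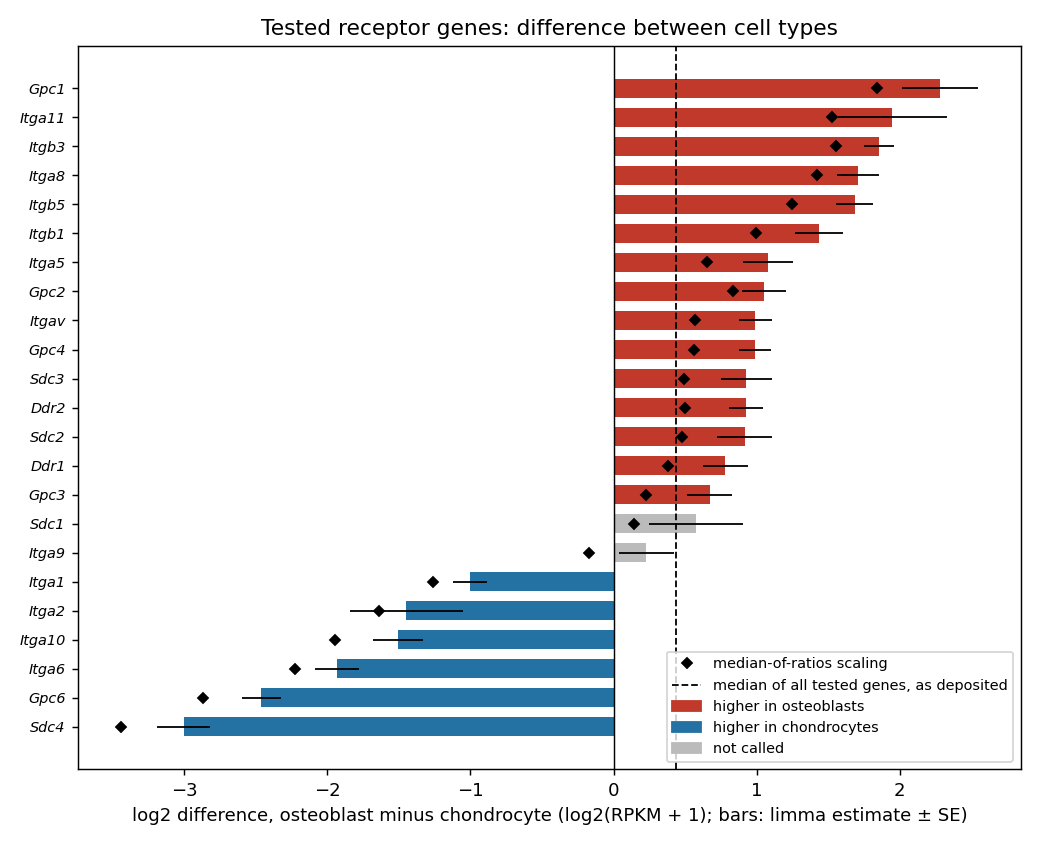
Log2 difference, osteoblast minus chondrocyte, of the 23 tested receptor genes on the log2(RPKM + 1) scale (x axis), with bars at the limma estimate and lines for its SE. Red bars were called higher in osteoblasts, blue bars higher in chondrocytes and grey bars were not called. Black diamonds give the difference under median-of-ratios scaling, and the dashed line marks the median of all tested genes, 0.43. Sdc4, at -3.003, and Gpc1, at 2.28, lie at the ends.

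Both discoidin receptors were higher in osteoblasts, as were 55.5% of all genes tested. Ddr2, the receptor of mesenchymal cells for fibrillar collagen, measured 24.5, 26.8 and 24.3 RPKM in osteoblasts and 11.1, 14.6 and 12.8 RPKM in chondrocytes, with a log2 difference of 0.92 ± 0.12 (SE, limma adjusted p = 0.000344). Ddr1, better known from epithelia, measured 12.3, 10.2 and 10.4 RPKM in osteoblasts and 6.55, 6.98 and 4.58 RPKM in chondrocytes, with a log2 difference of 0.78 ± 0.16 (SE, limma adjusted p = 0.00304). Under median-of-ratios scaling the Ddr1 difference was 0.38 with a limma adjusted p of 0.117. Ddr2 made up 69.6% ± 2.92 (SD, n = 3) of the discoidin receptor RPKM in osteoblasts and 68.1% ± 5.35 (SD, n = 3) in chondrocytes, and the ranges overlapped.

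Of the 38 receptor genes, 9 had several transcripts in the table. Transcript shares were tested with limma on percent values, in genes with at least 5 RPKM in every library and shares of 2% to 98%. Under this rule 13.6% of 2933 transcripts were called over all genes, and 0 of the 4 receptor transcripts tested, of Gpc6 and Itgb5, were called. At an unadjusted p under 0.05 the number was also 0. Gpc6 and Itgb5 have 2 transcripts each, whose shares add up to the whole, so both transcripts of a gene carry the same test. With so few separate tests, the absence of a call says little beside the 13.6%. The short 30-base exon of Gpc6 transcript NM_001079844, exon 7 of 10 at chr14:117892342-117892371 on the plus strand of GRCm38, is shown because NM_011821 lacks it. The coding sequences are 1695 and 1665 bases long.
Gpc6 exon: aggactgtgtggaggaccatgcagcacagt
NM_001079844 took 3.45%, 8.56% and 12.8% of Gpc6 RPKM in osteoblasts and 8.84%, 10.5% and 10.5% in chondrocytes, with a limma adjusted p of 0.737. The Itgb5 transcript NM_001145884 took 97.6% ± 0.417 (SD, n = 3) in osteoblasts and 96.3% ± 0.371 (SD, n = 3) in chondrocytes, with a limma adjusted p of 0.567.

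Ddr1 fell below 5 RPKM in 1 chondrocyte library and entered only when the minimum was set at 1 RPKM, where 8.20% of 5465 transcripts were called. NM_172962 took 9.15%, 8.78% and 9.87% of Ddr1 RPKM in osteoblasts and 23.6%, 17.9% and 28.1% in chondrocytes. The groups did not overlap, and the difference was -13.9 ± 2.85 percentage points (SE, osteoblast minus chondrocyte, limma adjusted p = 0.0433). The call was lost when any 1 of 5 libraries was left out, at limma adjusted p values of 0.0776 to 0.131, and was kept without the second chondrocyte library, at 0.0242. NM_001198833, the main transcript, took 84.9%, 74.2% and 81.0% in osteoblasts and 71.0%, 63.6% and 65.1% in chondrocytes, with a limma adjusted p of 0.0805. The way the authors divided reads between transcripts was not stated in the labels.

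NM_172962 lacks exon 12 of the 18 exons of NM_001198833, and this exon is shown because it is the stretch by which the coding sequences differ. It lies at chr17:35686481-35686591 on the minus strand of GRCm38, holds 111 bases or 37 whole codons, and belongs to the part of Ddr1 that lies inside the cell near the membrane. The other 3 Ddr1 transcripts of the table hold it.
Ddr1 exon: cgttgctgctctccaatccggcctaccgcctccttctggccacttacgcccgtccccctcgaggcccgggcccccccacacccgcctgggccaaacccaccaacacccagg
The coding sequence is 2733 bases long with the exon and 2622 bases long without it, and the reading frame goes on.

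**Figure D4:**
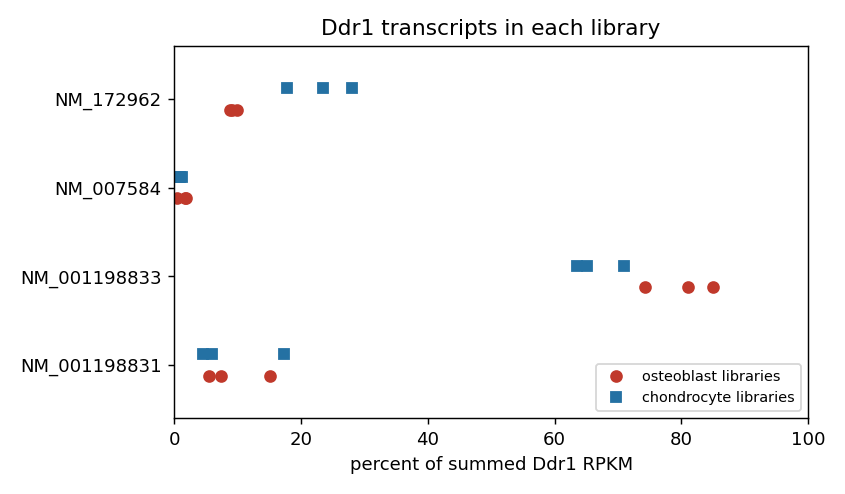
Share of each Ddr1 transcript in the summed Ddr1 RPKM (percent, x axis) in the 3 osteoblast libraries (red circles) and the 3 chondrocyte libraries (blue squares). NM_172962, without the exon, lies at 8.78% to 9.87% in osteoblasts and 17.9% to 28.1% in chondrocytes, and NM_001198833 lies at 74.2% to 84.9% and 63.6% to 71.0%.

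Further lists of genes around the receptors are read against the shares over all tested genes, 55.5% higher in osteoblasts and 13.5% higher in chondrocytes. Counts under median-of-ratios scaling stand beside 3765 of 11218 genes higher in osteoblasts and 3178 higher in chondrocytes under that scaling. Of 21 cytoplasmic linkers of integrins tested, osteoblasts had more of 17 (81.0%), chondrocytes had more of 2 (9.5%), and 2 were not called. Their median log2 difference was 0.82 against 0.43 over all tested genes. Under median-of-ratios scaling 12 were higher in osteoblasts and 3 higher in chondrocytes. Of the genes called, Parvb, Fblim1, Tln2 and Ptk2b passed the filter only through the osteoblast libraries, and Lims2 only through the chondrocyte libraries. For these genes a difference in that direction was built in. Vcl, vinculin of focal adhesions, measured 72.8, 66.6 and 72.0 RPKM in osteoblasts and 8.46, 8.04 and 11.4 RPKM in chondrocytes, with a log2 difference of 2.81. Parvb, a parvin that binds actin, had a log2 difference of 2.31, and Fblim1, migfilin, of 1.81. Lims2, a PINCH adaptor of the kinase Ilk, was the exception of greatest size: it measured 0.478, 0.439 and 0.219 RPKM in osteoblasts and 14.96, 27.2 and 10.1 RPKM in chondrocytes, a log2 difference of -3.64. The other call in chondrocytes, Bcar1, rested on the sum over its transcripts (log2 difference -0.33 and limma adjusted p = 0.0440), and its most abundant transcript alone went the other way, at 0.46. The Bcar1 call was also lost when any 1 of 5 libraries was left out, at limma adjusted p values of 0.0932 to 0.126, and without the filter, at 0.198. The tensin Tns1 and the paxillin gene Pxn, at limma adjusted p values of 0.0590 and 0.314, were the most abundant genes not called.

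Of 8 tested genes for proteins that hold integrins inactive or move them through the cell, osteoblasts had more of 3 (37.5%, against 55.5% of all genes), chondrocytes had more of 2 (25.0%, against 13.5%), and 3 were not called. Dok1, an adaptor that competes with talin, averaged 9.99 RPKM in osteoblasts and 53.2 RPKM in chondrocytes, a log2 difference of -2.25. Dab2, an endocytic adaptor, followed at -0.91. The small GTPase Rab21 at 0.74 and the integrin tail binder Itgb1bp1 at 0.52 were higher in osteoblasts, but under median-of-ratios scaling 0 genes of this list were. Snx17 and Numb, which act in integrin traffic, were the most abundant genes not called. Of the membrane proteins that sit beside integrins, 5 of 9 tested were higher in osteoblasts, a share of 55.6% beside 55.5% of all genes. Under median-of-ratios scaling the number was 3. Plaur, the urokinase receptor, measured 33.7, 29.8 and 27.6 RPKM in osteoblasts and 0.830, 2.10 and 1.49 RPKM in chondrocytes, a log2 difference of 3.69. Cd47 at 0.97, Cd63 at 0.89 and Cd81 at 0.56 had smaller differences. Cd9 and Slc3a2 were not called on the deposited scale, and under median-of-ratios scaling both were higher in chondrocytes, at -0.52 and -0.54.

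The soluble and matrix ligands of the RGD-binding integrins were split: osteoblasts had more of 7 of the 15 tested (46.7%, against 55.5% of all genes), chondrocytes had more of 6 (40.0%, against 13.5%), and 2 were not called. The bone proteins Ibsp and Spp1, bone sialoprotein and osteopontin, had log2 differences of 8.22 and 5.14, and both are also osteoblast markers used above. Npnt, nephronectin and the ligand of Itga8, measured 261, 239 and 240.2 RPKM in osteoblasts and 13.3, 3.83 and 11.9 RPKM in chondrocytes, a log2 difference of 4.68. Ctgf, a matricellular growth regulator of cartilage, had a log2 difference of -2.53. Fn1, fibronectin and the ligand of Itga5, was named after its values were seen, and averaged 319 ± 45.0 RPKM (SD, n = 3) in osteoblasts and 1319.97 ± 245 RPKM (SD, n = 3) in chondrocytes. Itga8 and Npnt were both higher in osteoblasts, as were 55.5% of all genes tested, and the direction of Itga8 was built in by the filter. Itga5 and Fn1 went in opposite directions. Postn and Tgfb3 were not called.

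**Figure D5:**
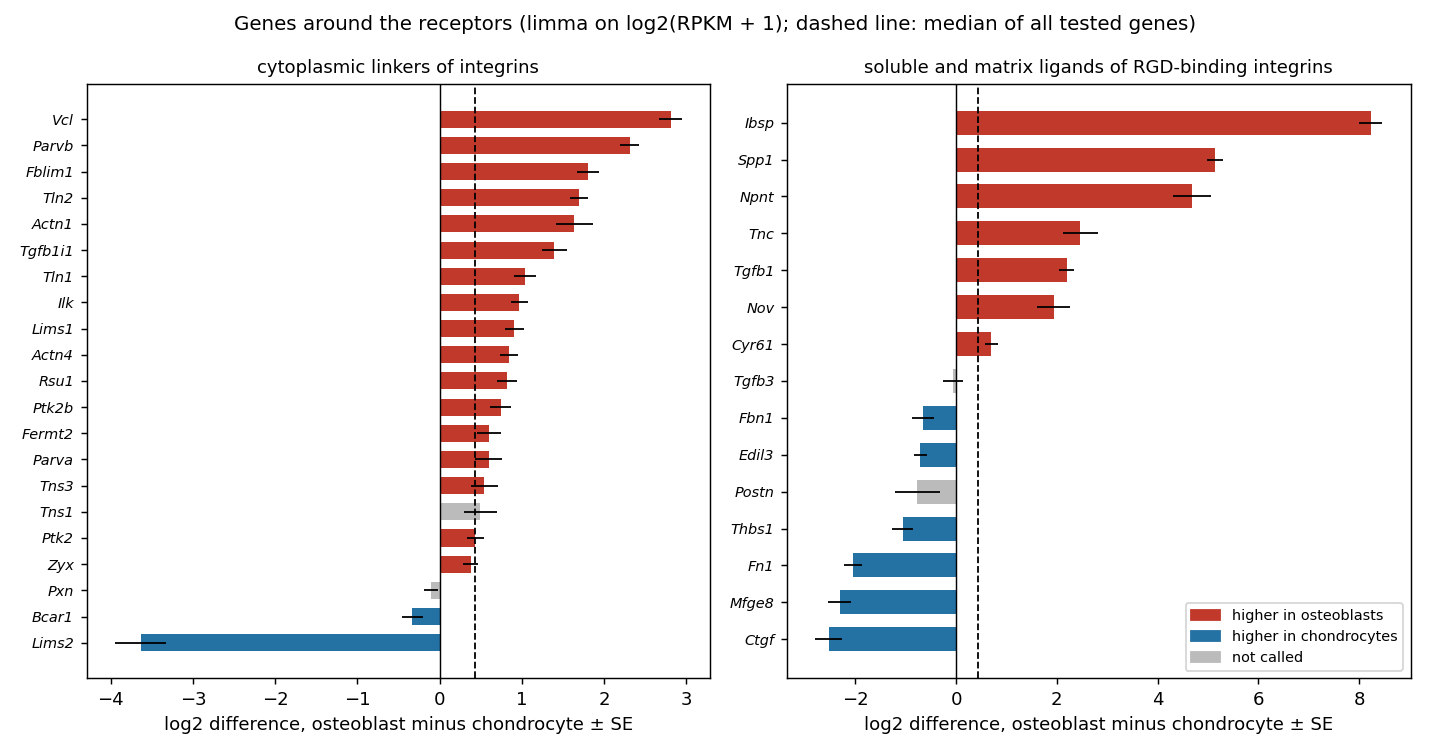
Log2 difference, osteoblast minus chondrocyte, with SE (x axis) for the tested cytoplasmic linkers of integrins (left) and the tested ligands of RGD-binding integrins (right). Red bars were called higher in osteoblasts, blue bars higher in chondrocytes and grey bars were not called, and the dashed line marks the median of all tested genes. Vcl, at 2.81, and Lims2, at -3.64, lie at the ends on the left, and Ibsp, at 8.22, and Ctgf, at -2.53, lie at the ends on the right.

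Of the laminin chains, the ligands of Itga6, 3 of 6 tested (50%, against 55.5% of all genes) were higher in osteoblasts, 3 were not called, and chondrocytes had more of 0. Under median-of-ratios scaling 1 was higher in chondrocytes, and without the filter 2 were. Lamb3 and Lama5 were under the filter, and their chondrocyte libraries lay above all osteoblast libraries, at means of 1.04 against 0.0867 RPKM and 0.488 against 0.163 RPKM. Lamb1 measured 66.0, 58.9 and 46.7 RPKM in osteoblasts and 3.91, 3.02 and 11.1 RPKM in chondrocytes, a log2 difference of 3.21. Lama2, of muscle basement membrane, stood at 1.60 and the common chain Lamc1 at 1.15. Lamb2 and Lama4 were not called.

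Among genes that act on or with heparan sulfate receptors, osteoblasts had more of 7 of the 11 tested (63.6%, against 55.5% of all genes), chondrocytes had more of 1 (9.1%, against 13.5%), and 3 were not called. The sulfatases Sulf1 and Sulf2, which trim heparan sulfate, had log2 differences of 2.10 and 1.52. Hpse, the heparanase that cuts these chains, stood at 1.33, and Mmp14, a membrane protease, at 1.63. Hpse passed the filter only through the osteoblast libraries, so its direction was built in. Sdcbp, syntenin, which binds the syndecan tail, was the call in chondrocytes, at -0.38. That number was 3 under median-of-ratios scaling, and 0 without the filter or without the first or the second osteoblast library. Notum, which acts on glypicans and on Wnt proteins, and Prkca, a partner of Sdc4, were not called.

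Of 9 other matrix receptors tested, 3 were called in each direction, and each 33.3% stands beside 55.5% and 13.5% of all genes. Cd44, the hyaluronan receptor, measured 54.0, 52.4 and 48.3 RPKM in osteoblasts and 1.31, 2.58 and 3.59 RPKM in chondrocytes, a log2 difference of 3.97. The sarcoglycan Sgcb stood at 1.58 and the dystroglycan gene Dag1 at 0.49. Cspg4 at -1.38, the betaglycan gene Tgfbr3 at -0.85 and the collagen uptake receptor Mrc2 at -0.69 were higher in chondrocytes. Sgce and Hmmr were not called, and Sgce was higher in chondrocytes under median-of-ratios scaling, at -0.39.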

How the data were processed

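The authors deposited RPKM per RefSeq transcript, with 0.0001 added to every value; TopHat2 2.0.8 and build mm9 stand in the submitters' processing notes, with the counting program not given in the sources used here. Libraries were grouped by their labels. RPKM of transcripts that share a symbol was added up, genes with at least 1 RPKM in at least 3 of 6 libraries were kept, and limma 3.58.1 in R 4.3.3 (variance trend, robust) was fitted to log2(RPKM + 1). This scale understates the change of low genes. The members and gene lists were chosen with earlier results of these data known. Of each further list, up to 4 called genes of largest difference and the 2 most abundant uncalled genes are named; Fn1, Bcar1, Sdcbp, Mrc2, Dag1, Lamb3 and Lama5 were added after their values were seen.

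Depth was estimated from the steps of low values, with GENCODE M21 lengths matched by RefSeq identifier: 53.8 to 71.3 reads for 1 RPKM in 2 kb. Of values under 20 reads, 46.3% to 53.0% were whole to within 0.05. Chance gives 10% at a depth fixed beforehand. Here the depth was chosen to make low values most nearly whole, so that 10% is not a fair measure. Many values were not whole, and no count test was run. Sequences and promoters are from RefSeq and GENCODE M21 on GRCm38, not mm9. The alternatives tried are in the closing section. The correlation of log2 values between libraries was 0.992 to 0.994 for osteoblasts, 0.961 to 0.986 for chondrocytes and 0.777 to 0.820 across cell types.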

Additional observations from a re-analysis of the deposited data

How the results depend on the processing

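The members' counts, 15 higher in osteoblasts and 6 in chondrocytes, were recomputed under 18 other settings. With a mean of at least 5 RPKM required, 17 members were tested and 3 were higher in chondrocytes. Leaving out 1 library gave 15 to 17 and 6 to 6. With transcripts of genes of at least 1 RPKM, 1 receptor transcript was called in place of 0. Of 408 member results, 397 kept their side of the threshold, 8 were weaker, 3 were stronger and 0 called values changed sign. Itga9, not called, changed sign under 3 scalings, to -0.17, -0.18 and -0.19. The 8 were Ddr1 and Gpc3 under other scalings (limma adjusted p = 0.112 to 0.309) and Gpc3, Itga2 and Sdc2 without the filter (limma adjusted p = 0.0629, 0.0969 and 0.0512). Sdc1 was also called with library weights (limma adjusted p = 0.0186). Without the filter, 19 members were higher in osteoblasts and 5 in chondrocytes, where 21.7% and 4.93% of all genes were.

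Of 2364 results for genes of other lists, 10 reversed. Bcar1 reversed to 0.46 with 1 transcript per symbol. Under median-of-ratios, upper-quartile and quantile scaling, Zyx reversed to -0.0540, -0.0594 and -0.0185, Sharpin to -0.0339, -0.0390 and -0.0509, and Sgce to -0.39, -0.39 and -0.37. The cause was not tested.

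Replicate numbers did not pair the libraries: deviations of same-numbered libraries correlated at 0.0791, 0.00964 and -0.155, and no osteoblast library correlated best with the chondrocyte library of its own number. With the number as a replicate block, the calls over all genes were 5892 with more in osteoblasts and 1376 with more in chondrocytes, against 6224 and 1512 without it, the members stayed at 15 and 6, 0 receptor transcripts were called, and Ddr1 NM_172962 had a limma adjusted p of 0.0901. Genes under the filter, such as Itgax and Gpc5, are limited by depth.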
